A study of Mus musculus with 18 samples.

Results

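The 49 genes described here encode proteins that drive mitosis and chromosome segregation, and they were taken by symbol from a fixed list. The rule for taking them uses no measured value, but the list was chosen with earlier results of these data known. For that reason no test of the set was made. All 49 had reads, among 15307 genes with reads in the count table, and all 49 passed the filter on low counts in RNA and in footprints. They were measured in GTML cells, a mouse medulloblastoma line cultured from tumours in which human MYCN is expressed in hindbrain neural progenitors. The transgene depends on the GLT1 promoter through a TRE element, every group carries it, and 1 line was used. Cells received DMSO as control, Rapalink-1 at 50 nM or rapamycin at 5 nM, each for 3 h, and each treatment has 3 replicates. From every dish a ribosome footprint library and a total RNA library were made, giving 18 libraries, 9 of each kind. Footprints are the mRNA fragments that ribosomes protect from nuclease, so their number reports translation. Rapamycin inhibits the kinase complex mTORC1 allosterically. Rapalink-1 tethers rapamycin to an ATP-site inhibitor of mTOR and, per the study's design, acts on the eIF4E-binding arm as well as on the S6 kinases.

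Cells enter mitosis when CDK1 bound to cyclin B is activated by CDC25 phosphatases against the brake of WEE1. Condensin and topoisomerase II then shape the chromosomes, kinetochores attach them to the spindle, and the checkpoint holds the anaphase-promoting complex (APC/C) in check until all are attached. Most of these genes are transcribed in G2 and M phase, and medulloblastoma cells, like the cerebellar progenitors they resemble, divide often.

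Many promoters of G2 and M phase genes hold a CHR element (TTTGAA) close to the start site and CCAAT boxes upstream of it. RefSeq promoter windows (build GRCm38.p6) were matched for 41 of the 49 genes, and the 250 bases before the annotated start were searched on both strands for TTTGAA and for CCAAT, with no match of one sharing bases with the other in a member's window. TTTGAA began within the last 60 bases in 11 of 41 genes (26.8%), against 3.75% of 27025 genes with a window. At least 2 CCAAT boxes stood in the 250 bases of 19 of 41 (46.3%), against 11.5% of all genes. A start like that of the mTOR-controlled TOP mRNAs, a C followed by 4 bases that are C or T, was found at 0 of 41 annotated starts, which allows a share of up to 7.32%, and at 3.01% of all. The last 90 bases before the start are printed for 5 members, to show the layout in genes whose footprints or RNA are described below. They are the ones that hold both motifs there and whose 90 bases lie outside the annotated gene, and capitals mark TTTGAA and CCAAT on either strand (they read TTCAAA and ATTGG from the opposite strand). They lie at chr10:69352913-69353002 (minus strand), chr4:118437344-118437433 (minus), chr19:37376292-37376381 (plus), chr3:89418292-89418381 (minus) and chr2:164769839-164769928 (plus), in the order given.
Cdk1: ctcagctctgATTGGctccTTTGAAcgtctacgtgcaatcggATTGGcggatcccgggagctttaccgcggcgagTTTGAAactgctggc
Cdc20: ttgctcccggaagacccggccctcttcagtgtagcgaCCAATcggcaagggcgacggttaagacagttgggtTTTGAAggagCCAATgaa
Kif11: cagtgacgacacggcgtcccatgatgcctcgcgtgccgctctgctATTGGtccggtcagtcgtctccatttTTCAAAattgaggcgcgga
Cks1b: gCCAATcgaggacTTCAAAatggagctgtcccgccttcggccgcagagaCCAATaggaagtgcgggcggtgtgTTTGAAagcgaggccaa
Ube2c: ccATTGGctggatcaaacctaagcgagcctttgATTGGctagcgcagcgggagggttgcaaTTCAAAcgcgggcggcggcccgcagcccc
Genes with and without TTTGAA near the start are set side by side by their RNA, without regard to CCAAT boxes. Of the 11 genes with TTTGAA near the start, 6 rose, 1 fell and 4 did not pass the test in RNA with Rapalink-1. Of the 30 others with a window, 16 rose, 4 fell and 10 did not pass, where 19.4% of all genes rose and 18.8% fell. With rapamycin the counts were 5, 1 and 5 of the 11, and 14, 1 and 15 of the 30, where 13.6% of all genes rose and 10.5% fell. With either drug the share of rises was close between genes with and without TTTGAA near the start, and a link was not tested.

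The libraries held 6788365 to 13300292 reads for RNA and 7692625 to 14150068 for footprints. As the sources used here name no spike-in, changes are relative to the other genes of its library, and in a bulk lysate more cells in G2 or M phase and more RNA per such cell cannot be told apart. Of 10 markers of cerebellar progenitors and granule neurons, 6 had reads, among them Neurod1, Zic2 and Nes. Atoh1, Barhl1, Sox2 and Gli2 had no row with reads under their symbols. The other lists had 1 of 5 oligodendrocyte markers (Cnp), 1 of 5 microglial markers (Itgam) and 0 of 7 vascular and fibroblast markers with reads. Itgam was not low, with a mean of 90.9 CPM in RNA (CPM are defined below). Neurod1 had 144.6, Nes 54.8, Zic2 44.0, Ptch1 24.3, Slc1a3 23.0 and Zic1 21.7. In footprints Itgam had a mean of 51.7 CPM, below Neurod1 (304.9) and Zic2 (120.9) and above Nes (48.0). The source of the Itgam reads was not tested. Nothing in the labels says that replicates came from separate cultures, so p-values measure the spread between these samples only. Log2 fold changes are given ± standard error from edgeR's quasi-likelihood fit, p-values are adjusted over all genes tested, and a gene is said to have risen or fallen where the adjusted p was under 0.05. CPM are counts scaled to the library size after TMM normalization. Both drugs are compared with the same 3 DMSO dishes.

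In DMSO the mitosis genes took 0.969 to 1.01% of RNA reads and 1.07 to 1.18% of footprint reads. With Rapalink-1 their share of footprint reads was 1.63 to 1.67%, above every DMSO library by a wide gap. Shares are of library totals, under which 47.9% of all genes rose in footprints with Rapalink-1 and 14.1% fell. Part of the gap is thus shared by many other genes. The mitosis genes' share of RNA reads with Rapalink-1, 1.01 to 1.06%, lay just above that of DMSO. With rapamycin the shares were 1.09 to 1.10% of RNA reads, above every DMSO library, and 1.15 to 1.26% of footprint reads, which overlapped with DMSO. The group means of the footprint share were 1.12 ± 0.056% with DMSO, 1.66 ± 0.026% with Rapalink-1 and 1.21 ± 0.056% with rapamycin (SD, n = 3).
Positions in the mouse build GRCm38.p6 are given for the 8 genes whose library values are plotted, each a protein-coding gene and chosen after their values were seen. Mki67 lies on chromosome 7 from 135689784 to 135716450, Bub1b on chromosome 2 from 118598202 to 118641592 and Kif11 on chromosome 19 from 37376382 to 37421863. Cenpf and Nuf2 lie on chromosome 1, from 189640606 to 189688107 and from 169497934 to 169531464. Cenpe and Ccna2 lie on chromosome 3, from 135212563 to 135273540 and from 36564865 to 36573038. Ndc80 lies on chromosome 17 from 71496100 to 71526857.

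**Figure D1:**
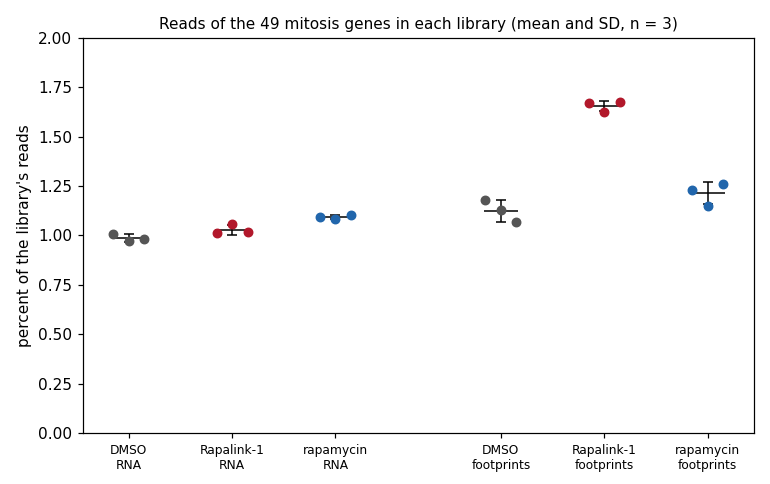
Percent of each library's reads (y axis, from 0) that fell on the 49 mitosis genes, by treatment and assay. Points are libraries, bars are mean and SD of 3. The Rapalink-1 footprint libraries, at 1.63 to 1.67%, stand above all others. Shares are of library totals, under which 47.9% of all genes rose in footprints with Rapalink-1.

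With DMSO alone these mRNAs had more footprints for their RNA than the median gene. The log2 ratio of footprint CPM to RNA CPM in DMSO had a median of 0.35 over the 49 genes, against -0.01 over all 10988 genes tested, and 0.20 under library totals against -0.15. It ran from -0.66 in Smc4, a condensin subunit, to 1.90 in Plk1, the polo-like kinase of centrosomes and kinetochores, with Ube2c at 1.75. RNA fragments and footprints cover a transcript differently, so the ratio describes the libraries and is no rate.

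With Rapalink-1, footprints of most of the mitosis genes went up relative to other mRNAs, for some of them together with their RNA. In footprints 35 of 49 rose and 6 fell, where 25.7% of all genes rose and 28.0% fell (53.7% called in all), and the median change was 0.31 against 0.01 over all genes. In RNA 24 rose and 5 fell, where 19.4% of all genes rose and 18.8% fell (38.2% called in all), with a median of 0.16 against 0.00. Translational efficiency, the footprint change beyond that of RNA, rose for 23 and fell for 3, where 22.3% of all genes rose and 19.9% fell (42.2% called in all), with a median of 0.18 against 0.06. Scaling by library totals in place of TMM moved the median of all genes by -0.13 in RNA, to 0.28 in footprints and to 0.43 in efficiency. Under it RNA gave 15 mitosis genes higher and 15 lower (all genes 9.96% and 33.1%), footprints 42 and 0 (all genes 47.9% and 14.1%), and efficiency 44 and 0 (all genes 50.6% and 7.65%). Their median distance from all genes stayed at 0.16, 0.30 and 0.13. A change of scaling moves all genes nearly alike, so this is no separate check.

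The route to more footprints differed between genes. For 13, among them Mki67, Aurkb, Tpx2 and Smc2, footprints and efficiency rose while RNA did not pass the test. For 11, among them Ndc80, Top2a, Ttk and 4 condensin subunits, RNA and footprints rose and efficiency did not pass. For 7, Bub1b, Cdc20, Cenpf, Kif11, Kif20a, Kif2c and Nusap1, all of RNA, footprints and efficiency rose. The efficiency call ended without any 1 of 5 libraries for Kif20a, 4 for Nusap1, 3 for Kif2c and 3 for Cdc20 (adjusted p 0.051 to 0.21). It also ended for each of these genes with only the treatments compared. Among the 13, the efficiency call of Fzr1 ended without any 1 of 4 libraries (adjusted p 0.064 to 0.15). Nuf2, Cdca8 and Cenpa had less RNA, more footprints and higher efficiency.

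**Figure D2:**
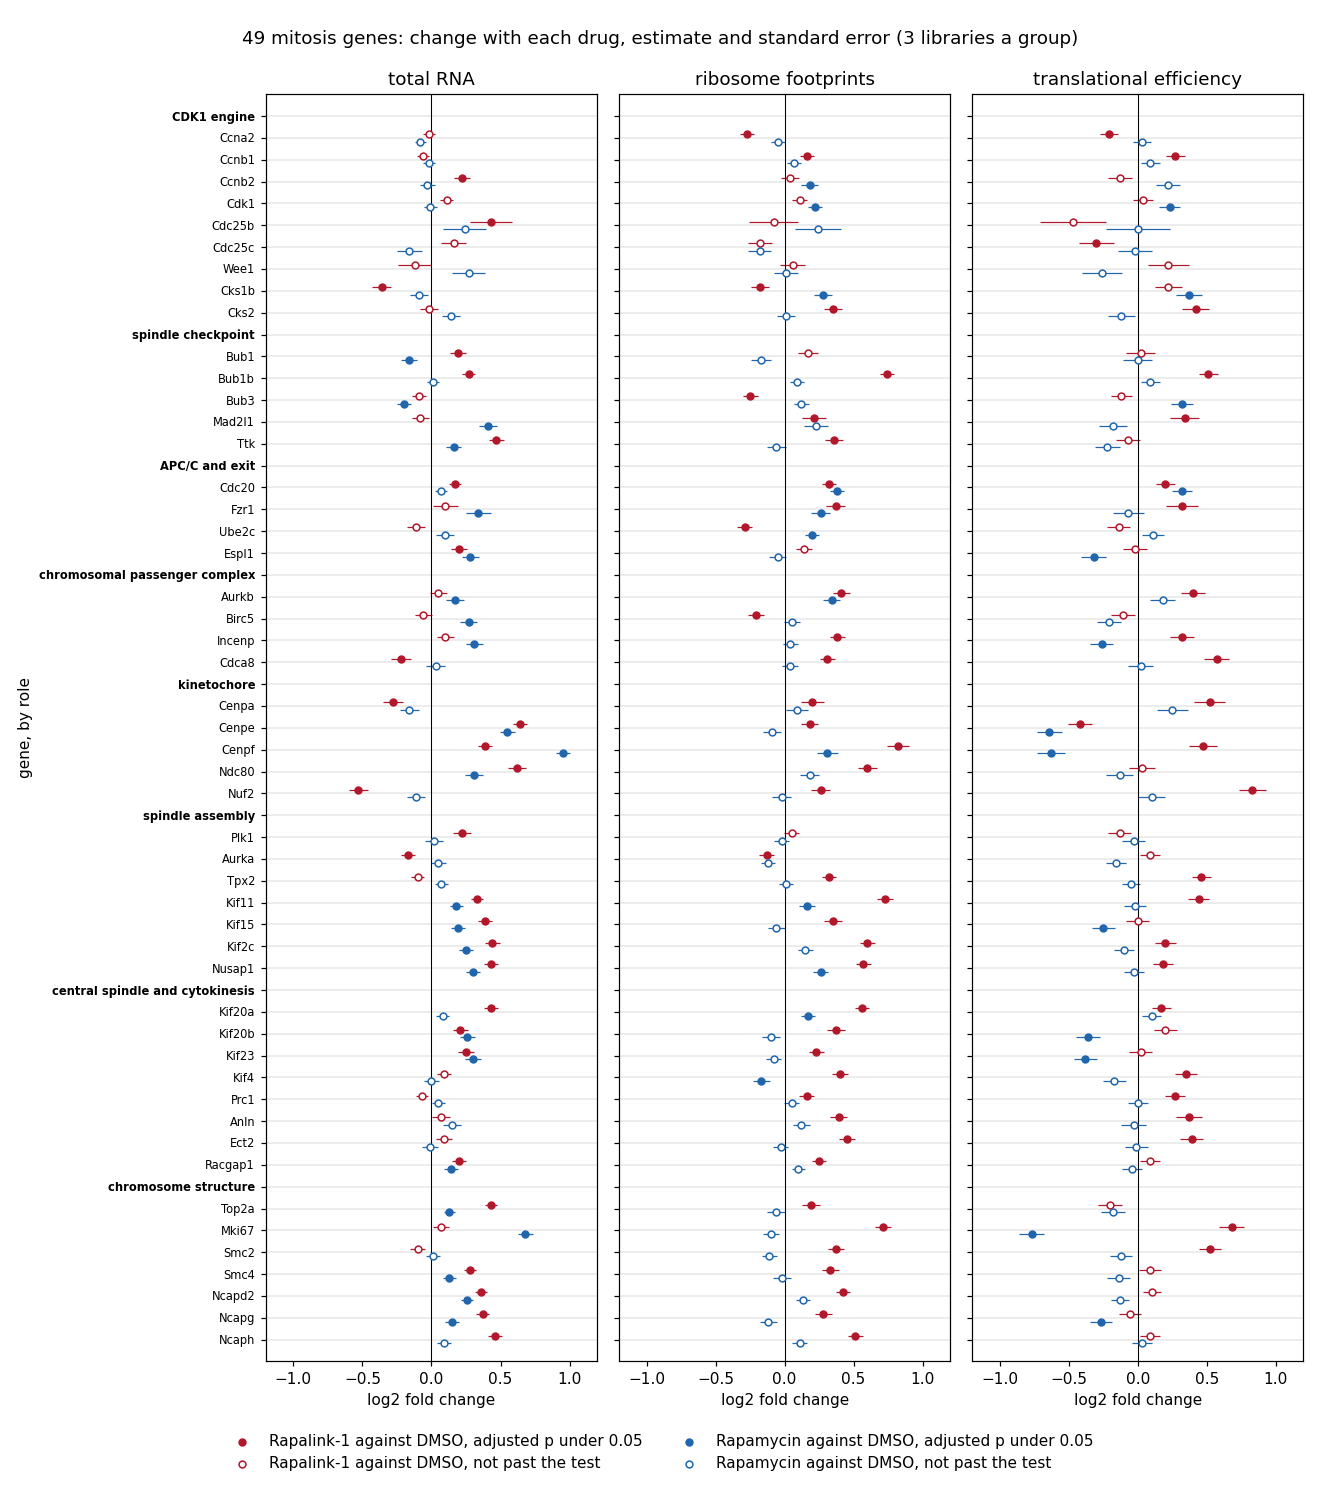
Log2 fold change of each of the 49 genes (rows, by role) in total RNA, ribosome footprints and translational efficiency (panels), with Rapalink-1 (red) and rapamycin (blue) against DMSO. Points are estimates and bars standard errors, and filled points have an adjusted p under 0.05. In footprints 35 red and 11 blue filled points lie above 0.

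With rapamycin more of these genes rose in RNA than in footprints. In RNA 22 of 49 rose and 2 fell, where 13.6% of all genes rose and 10.5% fell (24.1% called in all), with a median of 0.13 against 0.00. In footprints 11 rose and 1 fell, where 8.75% of all genes rose and 9.4% fell (18.1% called in all), with a median of 0.05. Efficiency rose for 4 (Bub3, Cdc20, Cdk1, Cks1b) and fell for 9, where 6.52% of all genes rose and 9.85% fell (16.4% called in all), with a median of -0.04. Under library totals footprints rose for 18 and fell for 0, where 12.3% of all genes rose and 5.8% fell. In 8 of the 9 genes with lower efficiency, RNA rose and footprints did not pass the test. In Cenpf, the ninth, both rose. The falls in efficiency of Incenp, Kif15 and Ncapg ended without any 1 of 3, 4 and 2 libraries (adjusted p 0.067 to 0.34). Under library totals their adjusted p was 0.072, 0.11 and 0.051. The RNA rise of Ncapg ended with only the treatments compared and without any 1 of 3 libraries (adjusted p 0.054 to 0.13).

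**Figure D3:**
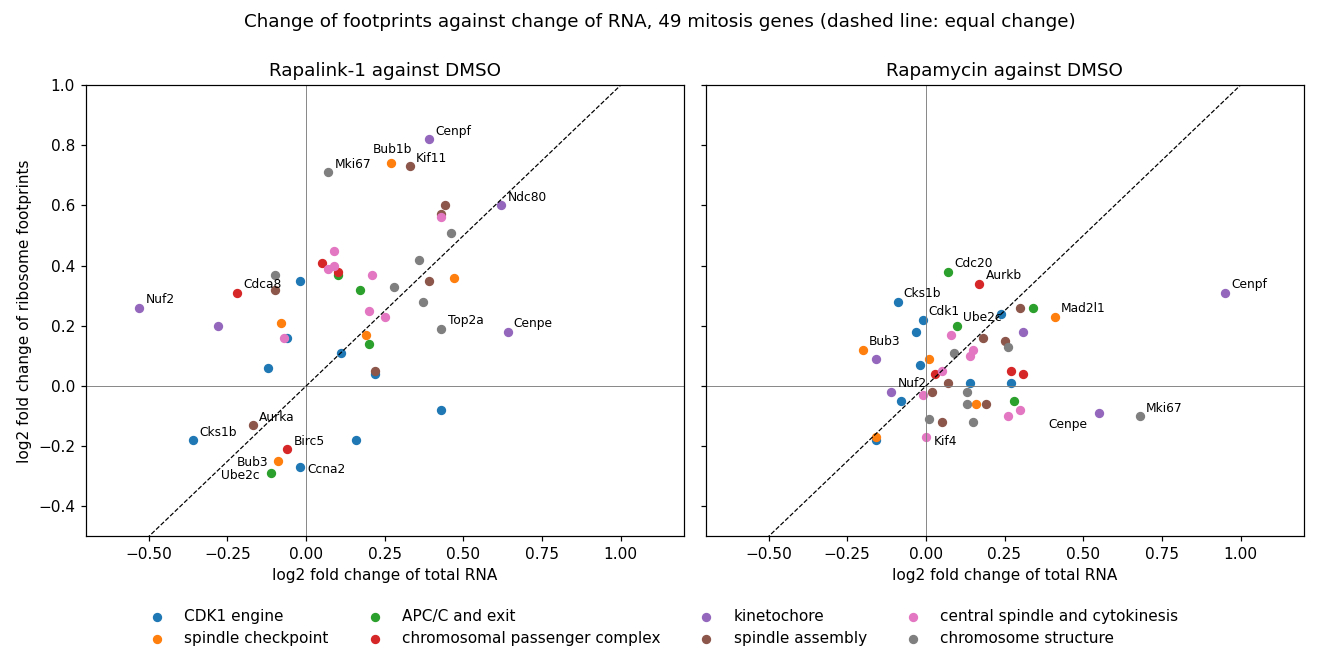
Log2 fold change of footprints (y axis) against that of total RNA (x axis) for the 49 genes, Rapalink-1 left and rapamycin right, coloured by role. On the dashed line both change alike. Nuf2, Mki67 and Cdca8 stand far above it with Rapalink-1, and Mki67, Cenpf and Cenpe far below it with rapamycin.

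Set directly against each other, Rapalink-1 and rapamycin differed for most of these genes in efficiency. The doses differ, 50 nM against 5 nM, so compound and dose cannot be told apart. The names of the DMSO and Rapalink-1 footprint libraries also carry a letter B that those of rapamycin lack, and what it marks cannot be told apart from rapamycin in footprints and efficiency. Efficiency was higher with Rapalink-1 for 31 of 49 and lower for 5, where 26.1% of all genes were higher and 23.9% lower (50.1% called in all), with a median difference of 0.23 against 0.04. Footprints were higher for 30 and lower for 5, where 25.4% of all genes were higher and 27.6% lower (53.1% called in all), with a median of 0.27. RNA was higher for 17 and lower for 15, where 19.6% of all genes were higher and 21.5% lower (41.1% called in all), with a median of 0.06. Under library totals RNA was higher for 7 and lower for 23 (all genes 9.37% and 35.2%), footprints for 40 and 3 (all genes 44.1% and 16.2%), and efficiency for 41 and 0 (all genes 47.1% and 10.9%).

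The CDK1 engine, the kinase with its cyclins, regulators and small CKS subunits, is measured by 9 genes. With Rapalink-1 they had 2 rises and 2 falls in footprints (median 0.04), where 53.7% of all genes were called, and likewise 2 and 2 in efficiency. With rapamycin they had 3 rises and 0 falls in footprints, where 18.1% of all genes were called, and 0 of 9 were called in RNA. The footprint rise of Ccnb2 with rapamycin ended with the DESeq2 Wald test, with only the treatments compared and without DMSO replicate 2 or 3 or rapamycin replicate 1 or 3. Under library totals the counts with Rapalink-1 were 5 and 0 in footprints and 6 and 0 in efficiency. Cyclin A2 and cyclin B1 parted. Ccna2, the cyclin of S and G2 phase, had footprints of 532, 482 and 507.5 CPM with DMSO, 419.7, 416 and 423 with Rapalink-1 and 495, 477 and 497 with rapamycin. All 3 Rapalink-1 values lie below all others, and the value fell by 0.27 ± 0.051 (adjusted p = 1.9e-05), but stood at 0.00 (adjusted p = 0.99) under library totals. Its RNA read 507, 499 and 527 CPM with DMSO, 506, 521 and 487 with Rapalink-1 and 490.2, 487 and 473.5 with rapamycin and stood at -0.02 ± 0.043 (adjusted p = 0.8). Its efficiency fell by 0.21 ± 0.067 (adjusted p = 0.0076), a call that ended without DMSO replicate 1 or Rapalink-1 replicate 2 (adjusted p 0.058 and 0.059). Ccnb1, the cyclin that activates CDK1 at mitotic entry, had footprints of 586.5, 592 and 545 CPM with DMSO, 638, 642 and 650.3 with Rapalink-1 and 609, 566 and 629.6 with rapamycin, so that Rapalink-1 stood above DMSO in every library. The rise was 0.16 ± 0.052 (adjusted p = 0.0072), with RNA at -0.06 ± 0.044 (adjusted p = 0.3) and efficiency at 0.27 ± 0.069 (adjusted p = 0.0013), past the test. Ccnb2, the cyclin found at membranes of the Golgi, had RNA of 155, 139.6 and 167 CPM with DMSO, 172.5, 184.5 and 177 with Rapalink-1 and 152, 150.3 and 147 with rapamycin and rose by 0.22 ± 0.056 (adjusted p = 0.0017) with Rapalink-1, while its footprints stood at 0.04 ± 0.064 (adjusted p = 0.62). Under library totals the RNA value was 0.08 (adjusted p = 0.27). Efficiency of Ccnb2 was lower with Rapalink-1 than with rapamycin by -0.35 ± 0.087 (adjusted p = 0.00056), although its value under library totals was -0.03.

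Cdk1, the kinase itself, had footprints of 389, 443 and 421 CPM with DMSO, 434, 472 and 449 with Rapalink-1 and 469, 483.5 and 502 with rapamycin. They overlapped between Rapalink-1 and DMSO (0.11 ± 0.054 (adjusted p = 0.073)) and rose above DMSO with rapamycin by 0.22 ± 0.054 (adjusted p = 0.0036). Its RNA of 327, 348.5 and 303 CPM with DMSO, 356, 349 and 352 with Rapalink-1 and 319.5, 319 and 332 with rapamycin did not pass the test with either drug. Efficiency of Cdk1 rose by 0.23 ± 0.073 (adjusted p = 0.021) with rapamycin, which 4 of the 6 libraries decide (adjusted p 0.054 to 0.14 without DMSO replicate 1 or any 1 rapamycin replicate). Cks1b, a CDK subunit also needed for p27 breakdown, went apart between the drugs. Its footprints were 92.8, 94.5 and 110.2 CPM with DMSO, 87.1, 87.4 and 87.7 with Rapalink-1 and 119.9, 123 and 118 with rapamycin, with no overlap between any of the groups. They fell by 0.18 ± 0.067 (adjusted p = 0.021) with Rapalink-1 and rose by 0.28 ± 0.065 (adjusted p = 0.0018) with rapamycin, and the direct difference was -0.46 ± 0.065 (adjusted p = 1.6e-07). The fall ended without DMSO replicate 3 or Rapalink-1 replicate 1 (adjusted p 0.21 and 0.056) and stood at 0.09 under library totals. Cks1b RNA, at 77.2, 72.6 and 82.1 CPM with DMSO, 64.5, 58.2 and 57.2 with Rapalink-1 and 68.7, 77.5 and 70.9 with rapamycin, fell by 0.36 ± 0.068 (adjusted p = 3.6e-05) with Rapalink-1. Its paralog Cks2 went up in footprints with Rapalink-1 by 0.35 ± 0.067 (adjusted p = 2.9e-05), with efficiency at 0.42 ± 0.097 (adjusted p = 0.0004), past the test.

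Wee1, the kinase that holds CDK1 inactive, is expressed with few reads here. Its RNA was 15.5, 18.6 and 17.5 CPM with DMSO, 15.7, 17.7 and 14.1 with Rapalink-1 and 19.4, 21.6 and 21.1 with rapamycin and its footprints 33.8, 35.9 and 30.6 CPM with DMSO, 33.2, 34.7 and 36.4 with Rapalink-1 and 34.2, 31.8 and 34.6 with rapamycin. Neither passed the test against DMSO, with Rapalink-1 at -0.12 ± 0.12 (adjusted p = 0.47) in RNA and 0.06 ± 0.09 (adjusted p = 0.62) in footprints. Between the drugs RNA was lower with Rapalink-1 by -0.39 ± 0.12 (adjusted p = 0.0063) and efficiency higher by 0.47 ± 0.14 (adjusted p = 0.0047), and both calls ended without Rapalink-1 replicate 3 (adjusted p 0.054 and 0.057). Cdc25c, a phosphatase that removes the WEE1 mark, had footprints of 44.5, 52.9 and 44.5 CPM with DMSO, 39.4, 39.7 and 45.2 with Rapalink-1 and 42.2, 40.5 and 41.4 with rapamycin against RNA of 37.7, 30.6 and 34.5 CPM with DMSO, 40.5, 39.9 and 34.4 with Rapalink-1 and 30.3, 32.2 and 29.3 with rapamycin. Its efficiency fell by 0.30 ± 0.12 (adjusted p = 0.047) with Rapalink-1 although its libraries overlap. That call ended with the DESeq2 Wald test, with the dish as a block and without DMSO replicate 2, Rapalink-1 replicate 1 or 2 (adjusted p 0.17 to 0.42 without 1 of these), and the value was 0.07 under library totals. Cdc25b had the widest errors of the 49 genes, with efficiency at -0.47 ± 0.24 (adjusted p = 0.11).

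Among the 5 spindle checkpoint genes, footprints rose for 3 and fell for 1 with Rapalink-1, where 25.7% of all genes rose and 28.0% fell. With rapamycin they rose for 0 and fell for 0 (2 and 0 under library totals), where 18.1% of all genes were called. The Rapalink-1 call of Mad2l1 ended with the block and without any 1 library but DMSO replicate 1 (adjusted p 0.083 to 0.21). Bub1b, the BUBR1 protein of the complex that restrains the APC/C, changed most. It had footprints of 235, 228 and 215 CPM with DMSO, 381, 375.5 and 377 with Rapalink-1 and 242, 235 and 246 with rapamycin, where Rapalink-1 lies far above both other groups and these nearly meet. Its footprints rose by 0.74 ± 0.053 (adjusted p = 3.7e-15), its RNA rose by 0.27 ± 0.045 (adjusted p = 4.7e-06) and its efficiency rose by 0.51 ± 0.07 (adjusted p = 2.6e-08). Bub1b RNA was 338, 316 and 319 CPM with DMSO, 387, 404 and 384 with Rapalink-1 and 316, 322.5 and 340.1 with rapamycin, and rapamycin left both at values that did not pass, 0.09 ± 0.053 (adjusted p = 0.24) in footprints and 0.01 ± 0.046 (adjusted p = 0.92) in RNA.

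Bub3, the partner that brings BUB1 and BUBR1 to kinetochores, went the other way. Its footprints were 257, 241 and 239 CPM with DMSO, 197, 204.5 and 218 with Rapalink-1 and 269, 265 and 267 with rapamycin, with Rapalink-1 below every DMSO and rapamycin library. They fell by 0.25 ± 0.055 (adjusted p = 0.00017), a value of 0.02 under library totals. Bub3 RNA of 232, 236 and 204 CPM with DMSO, 219, 211 and 201 with Rapalink-1 and 191, 196 and 199 with rapamycin fell by 0.20 ± 0.053 (adjusted p = 0.0036) with rapamycin, where its efficiency rose by 0.32 ± 0.077 (adjusted p = 0.0017). The efficiency difference between the drugs was -0.44 ± 0.077 (adjusted p = 2.7e-06), and -0.12 (adjusted p = 0.2) under library totals. Bub1, the kinase that marks centromeric histone H2A, had RNA of 179.6, 154.5 and 188 CPM with DMSO, 191, 209.7 and 194 with Rapalink-1 and 159, 158 and 149 with rapamycin. It rose by 0.19 ± 0.058 (adjusted p = 0.0072) with Rapalink-1 and fell by 0.16 ± 0.058 (adjusted p = 0.041) with rapamycin, but the first call ended without DMSO or Rapalink-1 replicate 2 (adjusted p 0.08 and 0.083; 0.49 under library totals) and the second with the DESeq2 Wald test, with the block and without any 1 of 5 libraries (adjusted p 0.067 to 0.2, DMSO replicate 2 excepted; 0.057 under library totals). Ttk, the MPS1 kinase that starts checkpoint signalling, rose in RNA by 0.47 ± 0.054 (adjusted p = 2.1e-09) and in footprints by 0.36 ± 0.066 (adjusted p = 1.7e-05) with Rapalink-1. Mad2l1, the MAD2 protein, rose in RNA by 0.41 ± 0.063 (adjusted p = 2.1e-06) with rapamycin, while Rapalink-1 left it at -0.08 ± 0.064 (adjusted p = 0.32).

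Of 4 genes of the APC/C and mitotic exit, Cdc20 rose in footprints with both drugs. Cdc20, the activator that starts anaphase, had footprints of 337, 342 and 316 CPM with DMSO, 413, 431 and 399 with Rapalink-1 and 439.6, 434 and 419 with rapamycin. Every treated library lies above every DMSO library. The rise was 0.32 ± 0.052 (adjusted p = 2e-06) with Rapalink-1 and 0.38 ± 0.052 (adjusted p = 7.5e-07) with rapamycin, and the direct difference of -0.06 ± 0.052 (adjusted p = 0.36) did not pass, with a 95% interval of -0.16 to 0.05. Cdc20 RNA, at 309.6, 299 and 285 CPM with DMSO, 338, 330.1 and 336 with Rapalink-1 and 313, 306 and 317.5 with rapamycin, rose by 0.17 ± 0.045 (adjusted p = 0.0029) with Rapalink-1 and stood at 0.03 under library totals. Its efficiency rose by 0.32 ± 0.069 (adjusted p = 0.00065) with rapamycin and by 0.20 ± 0.069 (adjusted p = 0.018) with Rapalink-1, the latter lost with only the treatments compared and without DMSO replicate 1, Rapalink-1 replicate 1 or 2 (adjusted p 0.051 to 0.13). Fzr1, the CDH1 activator that follows CDC20, also rose in footprints with both, by 0.37 ± 0.068 and 0.26 ± 0.067.

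Ube2c, the APC/C's ubiquitin-conjugating enzyme, went in opposite directions with the drugs. Its footprints were 329.7, 329 and 319.5 CPM with DMSO, 269.5, 268 and 261 with Rapalink-1 and 395, 358 and 370.3 with rapamycin, with no overlap between the groups. They fell by 0.29 ± 0.053 (adjusted p = 1.1e-05) with Rapalink-1 and rose by 0.20 ± 0.052 (adjusted p = 0.0053) with rapamycin, and the direct difference was -0.49 ± 0.052 (adjusted p = 2.6e-10). The first value was -0.02 under library totals, and the second call ended without rapamycin replicate 1 (adjusted p = 0.065). RNA of Ube2c, at 95.5, 92.2 and 101 CPM with DMSO, 83.3, 86.1 and 98.2 with Rapalink-1 and 101.5, 107 and 98.7 with rapamycin, did not pass against DMSO with either drug. Espl1, the separase that cuts cohesin, had higher RNA with rapamycin by 0.28 ± 0.061 (adjusted p = 0.00052) and lower efficiency by -0.32 ± 0.089 (adjusted p = 0.0076).

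The chromosomal passenger complex corrects faulty attachments and later guides cytokinesis. Of its 4 genes, 3 rose in footprints with Rapalink-1 and Birc5 fell, where 25.7% of all genes rose and 28.0% fell. Aurkb, its kinase, had footprints of 123, 127 and 125 CPM with DMSO, 156, 164.5 and 177 with Rapalink-1 and 150.0, 167 and 158 with rapamycin, with both drugs above DMSO in all libraries. The rise was 0.41 ± 0.06 (adjusted p = 3.3e-07) with Rapalink-1 and 0.34 ± 0.06 (adjusted p = 4.9e-05) with rapamycin. Its RNA was 85.1, 93.6 and 84.2 CPM with DMSO, 83.7, 93.2 and 95.7 with Rapalink-1 and 98, 94.7 and 104 with rapamycin, at 0.05 ± 0.064 (adjusted p = 0.58) with Rapalink-1, and its efficiency rose by 0.40 ± 0.089 (adjusted p = 0.00022). The RNA call with rapamycin, 0.17 ± 0.064 (adjusted p = 0.048), ended with DESeq2, with no count filter, with the block, with only the treatments compared and without DMSO or rapamycin replicate 1 or 3 (adjusted p 0.098 to 0.21 without 1 of these). Birc5, survivin, which docks the complex to centromeres, had footprints of 174, 171 and 193 CPM with DMSO, 161, 152 and 152.5 with Rapalink-1 and 177, 189.9 and 191 with rapamycin. Rapalink-1 lies below the others in every library, and the value fell by 0.21 ± 0.059 (adjusted p = 0.0027), or stood at 0.06 under library totals. Birc5 RNA of 89.7, 96 and 95.5 CPM with DMSO, 86.1, 92.2 and 92.2 with Rapalink-1 and 110.3, 121 and 107 with rapamycin rose by 0.27 ± 0.061 (adjusted p = 0.001) with rapamycin. Cdca8, borealin, and Incenp, the scaffold, rose in efficiency with Rapalink-1 by 0.57 ± 0.089 and 0.32 ± 0.084, and Cdca8 did so with RNA -0.22 ± 0.07. The Cdca8 fall in RNA ended without DMSO replicate 3 or Rapalink-1 replicate 2 (adjusted p 0.051 and 0.09).

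All 5 kinetochore genes rose in footprints with Rapalink-1, with a median of 0.26, where 25.7% of all genes rose. Their RNA split into 3 rises and 2 falls, where 19.4% of all genes rose and 18.8% fell. The footprint call of Cenpa ended with the DESeq2 Wald test and without any 1 of 4 libraries (DMSO replicate 1 or 2, Rapalink-1 replicate 2 or 3; adjusted p 0.081 to 0.24). Ndc80 and Nuf2 form the rod that grips microtubules, and their mRNAs moved in opposite directions. Nuf2 RNA was 78.2, 77.1 and 75 CPM with DMSO, 51.6, 55.2 and 53 with Rapalink-1 and 67.8, 77.1 and 67.7 with rapamycin, lower in all 3 Rapalink-1 libraries. It fell by 0.53 ± 0.067 (adjusted p = 1.8e-08), the largest fall in RNA among the 49. Nuf2 footprints were 85.4, 82.9 and 71.8 CPM with DMSO, 92.9, 98.1 and 96.1 with Rapalink-1 and 81.1, 74.9 and 81.6 with rapamycin and rose by 0.26 ± 0.069 (adjusted p = 0.002), so that efficiency rose by 0.83 ± 0.097 (adjusted p = 5.2e-10), the largest rise of the 49. Ndc80 RNA was 78.7, 72.5 and 84.7 CPM with DMSO, 119.8, 126.5 and 114 with Rapalink-1 and 97.9, 90.3 and 102.5 with rapamycin, above DMSO with both drugs. It rose by 0.62 ± 0.065 (adjusted p = 1.9e-10) with Rapalink-1 and rose by 0.31 ± 0.066 (adjusted p = 0.00043) with rapamycin. Ndc80 footprints, at 107, 96.2 and 98 CPM with DMSO, 162, 158.5 and 138 with Rapalink-1 and 117, 104 and 119.5 with rapamycin, rose by 0.60 ± 0.067 (adjusted p = 7.5e-10) with Rapalink-1, and efficiency stood at 0.03 ± 0.097 (adjusted p = 0.84).

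Cenpf, a large coiled-coil protein of the outer kinetochore, had the largest footprint rise of the 49 with Rapalink-1 and the largest RNA rise with rapamycin. Its RNA was 200.4, 192 and 199 CPM with DMSO, 243, 267 and 265 with Rapalink-1 and 398, 348 and 395 with rapamycin, 3 groups in clear steps. It rose by 0.39 ± 0.052 (adjusted p = 4.6e-08) with Rapalink-1 and rose by 0.95 ± 0.051 (adjusted p = 1.4e-18) with rapamycin. Footprints of Cenpf were 303, 274 and 248 CPM with DMSO, 497.5, 462 and 494 with Rapalink-1 and 353, 299 and 374 with rapamycin, where rapamycin overlaps with DMSO and Rapalink-1 does not. They rose by 0.82 ± 0.078 (adjusted p = 7.7e-08) with Rapalink-1 and by 0.31 ± 0.078 (adjusted p = 0.0092) with rapamycin. The drugs stand in opposite order in RNA and in footprints. Efficiency rose by 0.47 ± 0.1 (adjusted p = 0.00068) with Rapalink-1 and fell by 0.63 ± 0.1 (adjusted p = 8.6e-05) with rapamycin, and the direct difference was 1.10 ± 0.1 (adjusted p = 1.2e-09).

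Cenpe, the kinesin that carries chromosomes to the spindle equator, gained RNA with both drugs without a like gain in footprints. Its RNA was 192, 179 and 190.3 CPM with DMSO, 270.1, 306 and 299 with Rapalink-1 and 271, 263 and 289 with rapamycin, with every treated library above DMSO. It rose by 0.64 ± 0.051 (adjusted p = 1e-13) with Rapalink-1, the largest RNA rise of the 49, and rose by 0.55 ± 0.052 (adjusted p = 2.6e-11) with rapamycin. Footprints of Cenpe were 295, 273 and 250.1 CPM with DMSO, 318, 301 and 306 with Rapalink-1 and 265, 227 and 278 with rapamycin and rose by 0.18 ± 0.064 (adjusted p = 0.02) with Rapalink-1, a call lost without DMSO replicate 2 or 3 or Rapalink-1 replicate 1 (adjusted p 0.06 to 0.14). Efficiency fell by 0.42 ± 0.088 (adjusted p = 0.00012) with Rapalink-1 and fell by 0.64 ± 0.088 (adjusted p = 5.3e-07) with rapamycin. The first value was -0.05 (adjusted p = 0.65) under library totals. Cenpa, the histone variant that marks centromeres, had RNA -0.28 ± 0.071 and efficiency 0.52 ± 0.12 with Rapalink-1, both past the test.

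**Figure D4:**
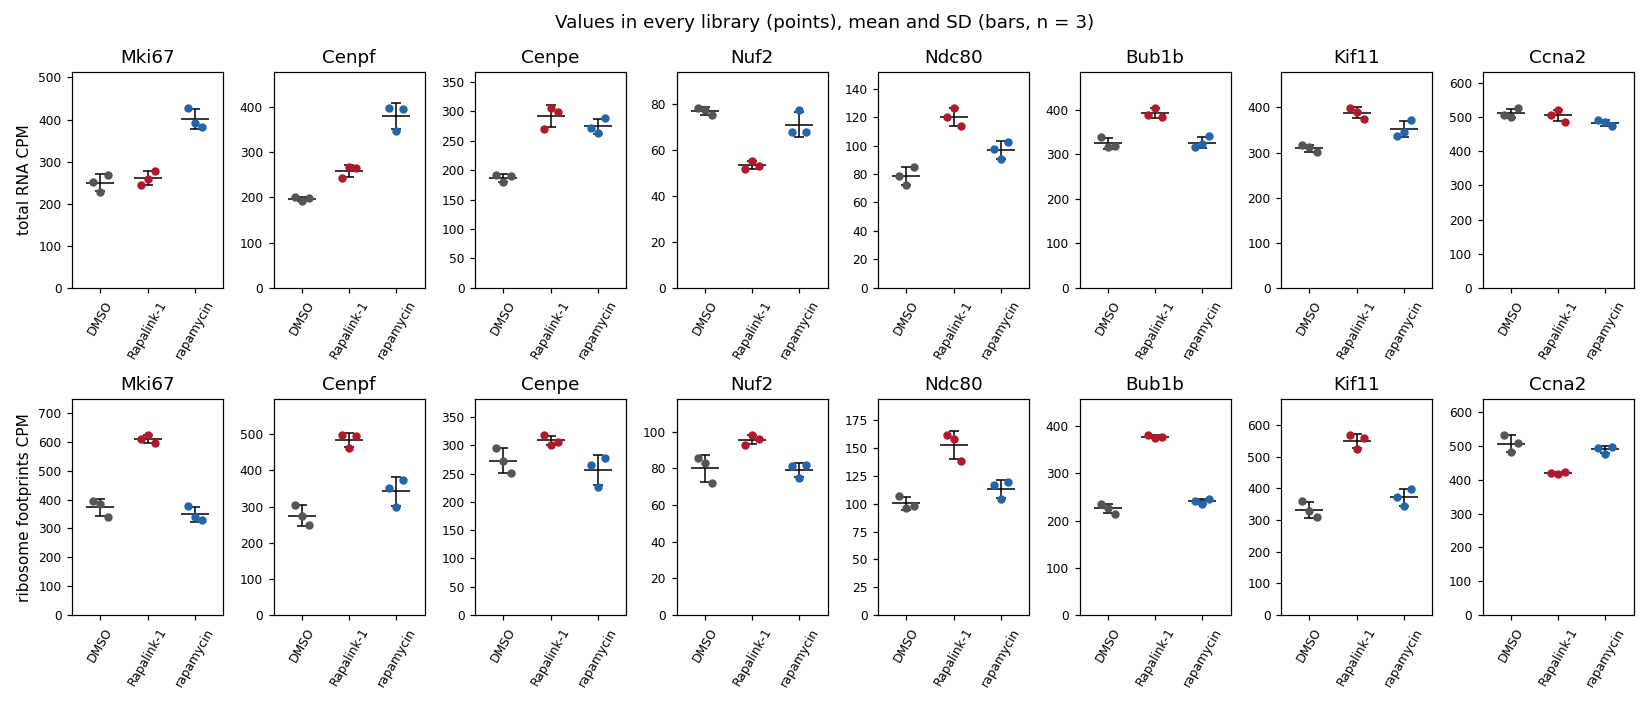
CPM of 8 genes in total RNA (top) and ribosome footprints (bottom) in each of the 9 libraries of an assay, from 0. Points are libraries and bars mean and SD of 3. Mki67 and Cenpf RNA is highest with rapamycin and their footprints are highest with Rapalink-1, and Nuf2 RNA is lowest with Rapalink-1.

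Among 7 spindle assembly genes, 5 rose and 1 fell in footprints with Rapalink-1, where 25.7% of all genes rose and 28.0% fell. Kif11, the Eg5 motor that pushes spindle poles apart, had footprints of 359, 328 and 309 CPM with DMSO, 568, 524 and 558 with Rapalink-1 and 373, 344 and 398 with rapamycin. Rapalink-1 lies above all other libraries by a wide gap, and the rise was 0.73 ± 0.058 (adjusted p = 1.3e-13). Its RNA of 316, 312 and 301 CPM with DMSO, 399, 390.0 and 375 with Rapalink-1 and 337, 346 and 372 with rapamycin rose by 0.33 ± 0.046 (adjusted p = 2e-07) and its efficiency rose by 0.44 ± 0.076 (adjusted p = 3.9e-06). With rapamycin Kif11 footprints overlapped with DMSO and the value was 0.16 ± 0.058 (adjusted p = 0.047), lost with DESeq2, with only the treatments compared and without DMSO replicate 2 or 3 or rapamycin replicate 1 or 3 (adjusted p 0.12 to 0.25). Its RNA rose by 0.18 ± 0.046 (adjusted p = 0.0024), lost without rapamycin replicate 3 (adjusted p = 0.052). Nusap1 and Kif2c, a microtubule bundler and a depolymerase, rose in footprints by 0.57 ± 0.052 and 0.60 ± 0.053 with Rapalink-1, with RNA up by 0.43 ± 0.051 and 0.44 ± 0.054. Tpx2, the activator of Aurora A, rose in efficiency by 0.46 ± 0.068 (adjusted p = 2.1e-07) with RNA at -0.10 ± 0.046, not past the test.

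Plk1 and Aurka, the kinases that mature centrosomes, did not follow. Plk1 footprints were 266, 287 and 293 CPM with DMSO, 286, 285 and 304.5 with Rapalink-1 and 274, 280.5 and 281 with rapamycin, which overlap between Rapalink-1 and DMSO (0.05 ± 0.054 (adjusted p = 0.45)). Plk1 RNA, at 74, 68.5 and 82.7 CPM with DMSO, 86.7, 89.2 and 85 with Rapalink-1 and 72.1, 74 and 80.7 with rapamycin, rose by 0.22 ± 0.066 (adjusted p = 0.0065) with Rapalink-1 and was 0.08 (adjusted p = 0.32) under library totals. Aurka footprints were 232, 241 and 226 CPM with DMSO, 216, 213 and 210.2 with Rapalink-1 and 211, 215 and 218 with rapamycin. They fell by 0.13 ± 0.053 (adjusted p = 0.044) with Rapalink-1, a call lost with DESeq2, with only the treatments compared and without any 1 library but DMSO replicate 3 (adjusted p 0.06 to 0.14), and 0.15 (adjusted p = 0.021) under library totals. Aurka RNA was 172, 163 and 177 CPM with DMSO, 156, 149 and 150.1 with Rapalink-1 and 171.5, 179 and 179 with rapamycin and fell by 0.17 ± 0.052 (adjusted p = 0.0071) with Rapalink-1.

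All 8 genes of the central spindle and cytokinesis rose in footprints with Rapalink-1, with a median of 0.38, where 25.7% of all genes rose. With rapamycin Kif20a rose and Kif4 fell, where 18.1% of all genes were called. The Rapalink-1 call of Prc1, a bundler of midzone microtubules, ended without DMSO replicate 2 or Rapalink-1 replicate 1 or 3 (adjusted p 0.053 to 0.066). Kif20a, the motor that brings passengers to the midzone, had footprints of 299.8, 279 and 286 CPM with DMSO, 421, 427 and 429 with Rapalink-1 and 336, 314 and 323 with rapamycin and RNA of 248, 230.5 and 224 CPM with DMSO, 310.0, 319 and 318 with Rapalink-1 and 251, 236 and 255 with rapamycin. Rapalink-1 is highest in both, with rises of 0.56 ± 0.052 (adjusted p = 6.2e-12) and 0.43 ± 0.048 (adjusted p = 1.2e-09). Its rise in footprints with rapamycin, 0.17 ± 0.052 (adjusted p = 0.018), ended without DMSO replicate 2 or rapamycin replicate 1 (adjusted p 0.093 and 0.11). Anln, anillin, the scaffold of the contractile ring, had footprints of 178, 166 and 146 CPM with DMSO, 211, 217 and 216 with Rapalink-1 and 183, 169 and 179 with rapamycin and RNA of 101, 88.8 and 110.3 CPM with DMSO, 103, 106 and 105 with Rapalink-1 and 111, 115 and 105 with rapamycin. Its footprints rose by 0.39 ± 0.061 (adjusted p = 7.9e-07) and its efficiency rose by 0.37 ± 0.092 (adjusted p = 0.001) with Rapalink-1, with RNA at 0.07 ± 0.064 (adjusted p = 0.41). Kif4, a chromokinesin that limits the length of midzone microtubules, had footprints of 175, 164 and 156 CPM with DMSO, 222, 223.5 and 208 with Rapalink-1 and 154, 135 and 149.7 with rapamycin, so that the drugs lie on opposite sides of DMSO. They rose by 0.40 ± 0.06 (adjusted p = 4.3e-07) with Rapalink-1 and fell by 0.17 ± 0.06 (adjusted p = 0.038) with rapamycin, and the second call ended with the DESeq2 Wald test, with only the treatments compared and without any 1 of 4 libraries (DMSO replicate 1 or 2, rapamycin replicate 2 or 3; adjusted p 0.061 to 0.22), and the value was -0.12 (adjusted p = 0.19) under library totals. The direct difference was 0.57 ± 0.06 (adjusted p = 1.5e-10), with RNA of 163.5, 153 and 167 CPM with DMSO, 169, 169.9 and 174 with Rapalink-1 and 163, 157 and 164 with rapamycin. Ect2, which activates RhoA at the cleavage site, rose in efficiency by 0.39 ± 0.082 (adjusted p = 9.8e-05) with Rapalink-1. Kif20b and Kif23, motors of the midbody, rose in RNA with rapamycin by 0.26 ± 0.052 and 0.30 ± 0.06 and fell in efficiency by -0.36 ± 0.087 and -0.38 ± 0.084.

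All 7 genes of chromosome structure rose in footprints with Rapalink-1, with a median of 0.37, where 25.7% of all genes rose. With rapamycin 0 of 7 passed the test in footprints, where 18.1% of all genes were called, and 2 rose under library totals. Mki67, the Ki-67 protein that coats mitotic chromosomes and a standard proliferation marker, parted most between the drugs. Its RNA was 252, 228.5 and 269 CPM with DMSO, 245, 259.6 and 279 with Rapalink-1 and 428, 392 and 381 with rapamycin, with rapamycin above all others. It stood at 0.07 ± 0.055 (adjusted p = 0.38) with Rapalink-1 and rose by 0.68 ± 0.055 (adjusted p = 8.9e-12) with rapamycin. Its footprints were 396, 385 and 340.0 CPM with DMSO, 610.5, 623 and 597 with Rapalink-1 and 379, 340.2 and 329 with rapamycin, with Rapalink-1 above all others. They rose by 0.71 ± 0.058 (adjusted p = 2.1e-13) with Rapalink-1 and stood at -0.10 ± 0.058 (adjusted p = 0.27) with rapamycin. Efficiency thus rose by 0.68 ± 0.089 (adjusted p = 5.5e-08) with Rapalink-1 and fell by 0.77 ± 0.089 (adjusted p = 3.7e-08) with rapamycin, and the direct difference of 1.46 ± 0.088 (adjusted p = 7.6e-17) was the largest of the 49.

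Top2a, topoisomerase II alpha, which untangles sister chromatids, had RNA of 1087, 1014 and 977 CPM with DMSO, 1355, 1453 and 1332 with Rapalink-1 and 1095, 1102.5 and 1160.3 with rapamycin. It rose by 0.43 ± 0.043 (adjusted p = 5.6e-11) with Rapalink-1 and by 0.13 ± 0.043 with rapamycin, the latter lost with the DESeq2 Wald test, with the block, with only the treatments compared and without DMSO replicate 3 or rapamycin replicate 2 or 3 (adjusted p 0.053 to 0.18). Footprints of Top2a were 1294, 1203 and 1057 CPM with DMSO, 1346.5, 1309 and 1398 with Rapalink-1 and 1149, 1033.5 and 1235.5 with rapamycin, with Rapalink-1 above DMSO in all 3 libraries, and rose by 0.19 ± 0.066 (adjusted p = 0.019). That call ended without DMSO replicate 3 or Rapalink-1 replicate 3 (adjusted p 0.11 and 0.072), and efficiency stood at -0.20 ± 0.085 (adjusted p = 0.065). Condensin I, which compacts mitotic chromosomes, is measured by 5 subunits here. Ncaph, its kleisin, had RNA of 142, 143.5 and 138 CPM with DMSO, 200.3, 198 and 185 with Rapalink-1 and 150.0, 146.5 and 153 with rapamycin and footprints of 178, 172 and 166.5 CPM with DMSO, 245, 248.5 and 243 with Rapalink-1 and 186, 183 and 189.6 with rapamycin, Rapalink-1 being highest in both. Its RNA rose by 0.46 ± 0.052 (adjusted p = 1.1e-09), its footprints rose by 0.51 ± 0.054 (adjusted p = 2.3e-10), and its efficiency stood at 0.09 ± 0.073 (adjusted p = 0.35). Ncapd2, Ncapg and Smc4 showed the same with Rapalink-1, with RNA up by 0.36 ± 0.044, 0.37 ± 0.049 and 0.28 ± 0.044 and footprints up by 0.42 ± 0.05, 0.28 ± 0.061 and 0.33 ± 0.062. Smc2, the ATPase partner of SMC4, differed, with RNA at -0.10 ± 0.052 (adjusted p = 0.11), footprints up by 0.37 ± 0.057 and efficiency up by 0.52 ± 0.08 (adjusted p = 3.7e-07).

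Further lists hold other genes of the cell cycle, described here by their efficiency with Rapalink-1, where 22.3% of all genes rose and 19.9% fell. The 109 further mitosis genes had 44 rises and 13 falls (median 0.15). The largest rises were those of Plk4, the kinase of centriole duplication (0.99 ± 0.12), Nipbl, the cohesin loader (0.86 ± 0.088), and Foxm1, a transcription factor of G2 and M phase genes (0.85 ± 0.14). The largest falls were those of Cenpu (-0.79 ± 0.13) and Cenpp (-0.66 ± 0.12), of the inner kinetochore, and Mau2, the partner of NIPBL (-0.65 ± 0.098). The 48 DNA replication genes had 15 rises and 16 falls (median -0.03). Dbf4 (0.61 ± 0.079), Tipin (0.52 ± 0.086) and Pcna (0.48 ± 0.068) rose most, and Rfc2 (-0.79 ± 0.095), Orc3 (-0.71 ± 0.092) and Gins2 (-0.69 ± 0.11) fell most. The 22 genes of G1 control had 8 rises and 5 falls (median 0.23). Here the kinase inhibitors Cdkn2c (0.93 ± 0.19) and Cdkn1b (0.52 ± 0.13) and the repressor E2f6 (0.98 ± 0.17) rose most, and cyclins E2 (Ccne2, -0.83 ± 0.11), D1 (Ccnd1, -0.67 ± 0.17) and D3 (Ccnd3, -0.67 ± 0.14) fell most. In footprints the 3 lists had 57 rises and 15 falls, 20 and 12, and 7 and 7, where 25.7% of all genes rose and 28.0% fell. Under library totals the lists, in the same order, had 87 rises and 3 falls, 29 and 6, and 16 and 1 in efficiency (all genes 50.6% and 7.65%), and 89 and 7, 33 and 5, and 13 and 5 in footprints (all genes 47.9% and 14.1%). Their efficiency medians were then 0.52, 0.34 and 0.60, against 0.43 over all genes. No test was made between the lists.

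The authors' deposited tables gave the same sign as the fits here for 49 of 49 mitosis genes in each of their 6 comparisons with DMSO. In the authors' deposited table of footprints with Rapalink-1, 38 rose and 6 fell at an adjusted p under 0.05, and 41 were called there and here with 1 sign. In the authors' deposited table of efficiency, 23 rose and 3 fell with Rapalink-1 and 4 rose and 9 fell with rapamycin, the same genes as here (26 and 13 called in both).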

How the data were processed

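Total RNA and ribosome footprints were sequenced from 18 libraries, 3 per treatment and assay, both made with the ARTseq kit from 1 lysate per dish, per the labels' protocols. The genome build is named as GRCm38 (mm10), per the submitters' processing notes. The names of aligner, counter and filters were not given in the sources used here. Values of the deposited count table are whole-number counts without normalization, 1 row per transcript, as its values show. The log2 fold changes and adjusted p-values of the authors' comparison tables were used as deposited, and only to set them beside the fits made here.

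Of 27382 transcript rows, rows with equal counts or of 1 gene were merged to 15307 features with reads, called genes here. Of these, 9787 carried a symbol, and the rest, named by transcript, held 1.83 to 2.15% of a library's reads. Those of the rest that passed the filter below count among all genes in the shares given. The 49 members had 60 rows; 9 had more than 1 row, and in Mad2l1 these differed, so the row with most reads was kept. No member's counts lay within 5% of another gene's in all libraries. Genes passed filterByExpr (minimum count 10, minimum total 15), which left 11271 genes in RNA, 11281 in footprints and 10988 in both. Counts were scaled with TMM and fitted with edgeR 4.0.16 (R 4.3.3, limma 3.58.1) by its robust quasi-likelihood method, with all 3 treatments in a fit. Efficiency is the interaction of assay and treatment over 18 libraries. Benjamini-Hochberg adjustment covered every gene tested in a comparison, with a threshold of 0.05. Variation between replicates (edgeR's BCV) came to 5.72% for RNA and 6.38% for footprints. It covers the spread between these samples only, as the labels do not name separate cultures. On simulated data with 200 changed genes the scripts were checked before use. Alternatives were library totals, DESeq2 1.42.0 size factors and its Wald test, no count filter, only the treatments compared, a replicate block and leaving out each library.

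RNA and footprint libraries of 1 number share a dish, so efficiency was also fitted with the dish as a block. Their deviations from group means correlated by -0.07 to 0.18. Same-numbered dishes of different treatments correlated by -0.16 to 0.17. As libraries of 1 dish correlated about as weakly, these values cannot tell whether the numbers pair dishes across treatments.

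The members and lists were chosen with earlier results of these data known. Values in every library are given for Ccnb1, Cdk1, Plk1, Aurka, Aurkb, Birc5, Bub1b, Cdc20, Top2a, Mki67, Kif11, Cenpe, Anln and Wee1, and for the 2 largest called rises and falls among members in each of 9 comparisons. Of the other lists, the 3 largest called rises and falls in efficiency with Rapalink-1 are named.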

Additional observations from a re-analysis of the deposited data

How the results depend on the processing

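Scaling by library totals changed more than any other alternative, because it moves the median of all genes. Under it, RNA with Rapalink-1 gave 15 members higher and 15 lower (median 0.02), and RNA with rapamycin 1 lower. RNA with Rapalink-1 against rapamycin gave 7 higher and 23 lower (median -0.08). Footprints gave 0 lower with Rapalink-1 (median 0.58), 18 higher and 0 lower with rapamycin, and 3 lower between the drugs (median 0.49). Efficiency gave 44 higher and 0 lower with Rapalink-1 (median 0.55), a median of 0.00 with rapamycin, and 0 lower between the drugs (median 0.56). The DMSO ratio of footprints to RNA had a median of 0.20.

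Library totals also turned the sign of 26 values of single members that passed the test under TMM, under library totals or under both. Sign changes of values that passed under neither were not counted. In RNA between the drugs, these were Cdk1 (-0.02), Kif11 (0.00) and Nusap1 (-0.01). In footprints with Rapalink-1 they were Cks1b (0.09), Bub3 (0.02), Birc5 (0.06) and Aurka (0.15), and between the drugs Cdc20 (0.16) and Aurka (0.21). In efficiency with Rapalink-1 they were Ccna2 (0.15), Ccnb2 (0.23), Cdc25c (0.07), Bub3 (0.25), Ttk (0.30), Ube2c (0.22), Espl1 (0.35), Birc5 (0.26), Plk1 (0.24), Kif15 (0.36) and Ncapg (0.31). In efficiency between the drugs they were Ccna2 (0.08), Cdk1 (0.14), Cdc20 (0.21), Ube2c (0.08), Plk1 (0.23) and Top2a (0.31).

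The DESeq2 Wald test gave 1 member lower in RNA and 0 lower in footprints with rapamycin, and a fit of only the treatments compared gave 0 lower in footprints with rapamycin; the cause was not tested. With 1 library left out, members lower with rapamycin ranged from 1 to 3 in RNA and from 0 to 5 in footprints, and members higher in footprints from 7 to 14. Without 1 library, the footprint median between the drugs ranged from 0.24 to 0.29. Members lower in efficiency with Rapalink-1 ranged from 1 to 5, and the median from 0.13 to 0.19.

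With the replicate number as a block, RNA with rapamycin gave 1 member lower. Whether the numbers pair dishes across treatments is not known. With the dish as a block, efficiency with Rapalink-1 gave 25 members higher and 3 lower. The block ended 9 calls of single members and made 8 of 441 results new calls. Of 26 efficiency calls with Rapalink-1, 19 were kept in every alternative but library totals and 23 under library totals. Of 41 footprint calls these were 34 and 35, and of 29 RNA calls 25 and 20. With rapamycin 16 of 24 RNA calls, 7 of 12 footprint calls and 9 of 13 efficiency calls were kept in every alternative but library totals. Between the drugs these were 20 of 32, 34 of 35 and 25 of 36. Library totals kept 23, 11 and 10 of the calls with rapamycin and 22, 33 and 31 of those between the drugs.

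Fits of 3 libraries per group limit what is seen: at this spread the standard error of a member's log2 change was between 0.043 and 0.24. The design has 1 dose and 1 time per drug, and the drugs' doses differ. Changes are relative within a library, so a change in the total amount of RNA or of translation is not measured here.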
